A study of Mus musculus with 7 samples.

Results

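AMPA receptors and their cornichon partners were followed as 6 genes of bulk RNA-Seq from endpoint mouse gliomas, the pore-forming subunits Gria1, Gria2, Gria3 and Gria4 and the auxiliary proteins Cnih2 and Cnih3. They were taken by gene symbol from the 19257 genes of the normalized count table that the authors deposited, and all 6 were found and passed the filter on low counts. The 3xCR tumors (labelled control, replicates 2, 3 and 4) were made by in utero electroporation of a single CRISPR construct with Cas9 and guides that target tumor suppressors, including Trp53 and Nf1, into progenitors lining the lateral ventricles. The GPC6 tumors (replicates 1, 2, 3 and 4) received the same construct together with a piggyBac transposon that overexpressed the glypican GPC6, so the targeting of these tumor suppressors was shared by both groups. A piggyBac GFP reporter labelled cells of the model, which was bred on CD-1 and C57BL/6 backgrounds. The animals were sampled at their endpoint rather than at a fixed age, and neither the sex nor the strain background behind each library is given. The labels call the tissue brain and the cell type neural, and a library mixes the RNA of the tumor with that of every other cell in the sampled tissue.

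AMPA receptors are tetrameric glutamate-gated cation channels that carry most fast excitatory transmission in the brain. Each subunit comes from its own gene, and the mixture sets the speed and the ion selectivity of the channel, since receptors that lack edited GluA2 (Gria2) let calcium through. Cornichons bind the assembled receptor, help its export from the endoplasmic reticulum and slow its closing. AMPA receptors are found on neurons and also on oligodendrocyte precursors and glioma cells, some of which receive synapses from neurons.

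Read counts of a gene family depend on sequence that can tell its members apart, and the pore loop is among the parts in which the family is most alike. The coding strand around the Q/R site, the position at which RNA editing exchanges a glutamine for an arginine in Gria2, is shown for the 4 subunits from GRCm38 with the GENCODE annotation. Capitals mark the codon of that site as the genome has it.
Gria1: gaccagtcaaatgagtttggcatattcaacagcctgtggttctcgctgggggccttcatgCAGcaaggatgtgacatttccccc
Gria2: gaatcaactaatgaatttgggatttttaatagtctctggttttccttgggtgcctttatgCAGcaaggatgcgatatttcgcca
Gria3: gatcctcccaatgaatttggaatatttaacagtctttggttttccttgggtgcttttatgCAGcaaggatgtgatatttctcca
Gria4: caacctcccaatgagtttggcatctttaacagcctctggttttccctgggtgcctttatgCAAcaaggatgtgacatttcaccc
The stretches lie at chr11:57243034-57243117 on the plus strand (Gria1, exon 11 of 16) and chr3:80706890-80706973 on the minus strand (Gria2, exon 11 of 16). The others lie at chrX:41610205-41610288 on the plus strand (Gria3, exon 11 of 16) and chr9:4464116-4464199 on the minus strand (Gria4, exon 12 of 17). All 4 codons read glutamine. Any pair of subunits shared 25 to 27 of the 28 encoded residues, but only 62 (Gria1 with Gria2) to 72 (Gria2 with Gria3) of the 84 bases. Editing itself cannot be read from gene counts and was not analysed here.

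The mean log2 value of each of the 6 genes was higher in GPC6 than in 3xCR tumors, by 0.26 for Gria4 and by 1.00 to 1.71 for the other 5. None passed the adjusted threshold, and the spread within the GPC6 group was wide for Gria1, Cnih2 and Cnih3 and narrow for Gria3. Gria3 was the only member whose groups did not overlap. Between 57 reads (Cnih3) and 2944 reads (Gria1) lay behind a single value, so the spread between tumors, not counting error, set the precision. In bulk tissue a lower level can mean fewer cells of a type or less RNA per cell, and these cannot be told apart.

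**Figure D1:**
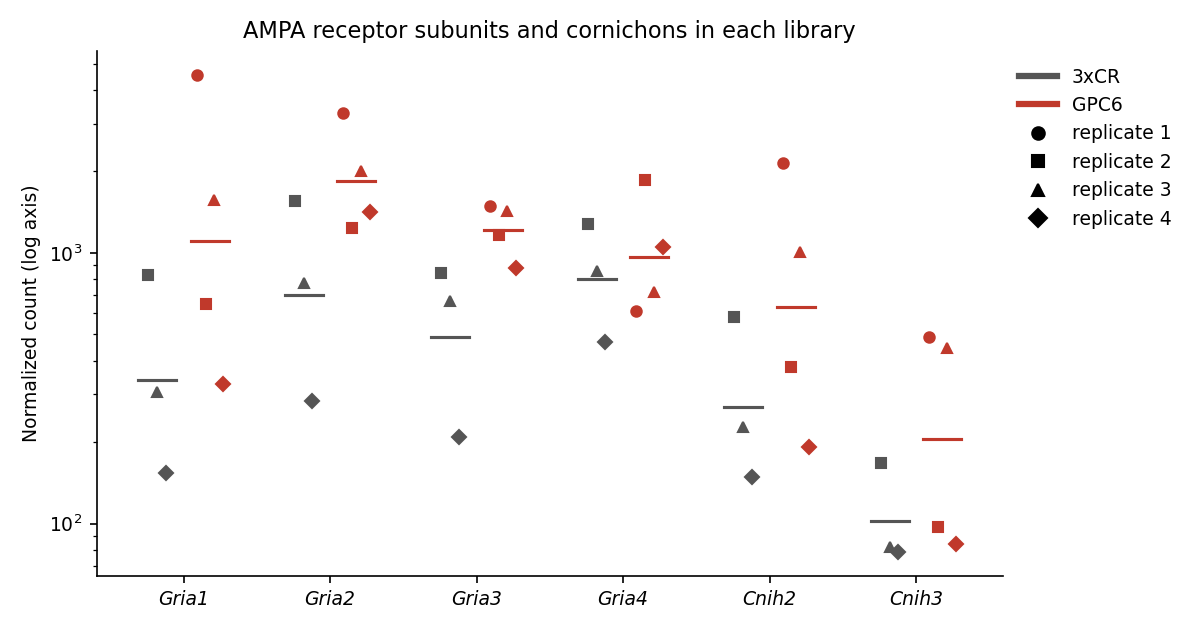
Normalized counts (log axis) of the 6 genes in each library, with 3xCR in grey, GPC6 in red, a symbol for each replicate number and a bar at the mean of the log2 values. GPC6 replicates 1 and 3 are the 2 highest libraries for each gene but Gria4, the Gria3 values of the groups do not overlap, and Gria4 is highest in GPC6 replicate 2 (1859).

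Gria1 encodes GluA1, the subunit of activity-dependent synaptic delivery, and lies on chromosome 11 from 57011387 to 57330244. The 3xCR tumors (replicates 2, 3 and 4, here and in every later series of values) had 825, 306 and 153 normalized counts, and the GPC6 tumors (replicates 1, 2, 3 and 4) had 4550, 646, 1569 and 327. The means were 428 ± 352 (SD, n = 3) and 1773 ± 1925 (SD, n = 4). GPC6 replicates 1 and 3 stood above every 3xCR tumor, whereas GPC6 replicates 2 and 4 fell inside the 3xCR range. On the log2(normalized count + 1) scale the difference was 1.71 with a standard error of 0.92 (limma, unadjusted p = 0.101, adjusted p = 0.730). With a 29.7-fold gap between its highest and lowest library, Gria1 varied most of the 6 genes.

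Gria2 encodes GluA2, the subunit that blocks calcium entry once edited, and lies on the minus strand of chromosome 3 from 80681450 to 80802835. The 3xCR tumors had 1558, 771 and 285 normalized counts (871 ± 642, SD, n = 3), and the GPC6 tumors had 3289, 1239, 2000 and 1414 (1986 ± 928, SD, n = 4). A single 3xCR tumor, replicate 2, reached into the GPC6 range. The log2 difference was 1.40 with a standard error of 0.58 (limma, unadjusted p = 0.0438, adjusted p = 0.730), and 0.75 without 3xCR replicate 4 (unadjusted p = 0.163).

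Gria3 encodes GluA3 and lies on chromosome X from 41400854 to 41678601. In the 3xCR group its normalized counts were 840, 666 and 209 (571 ± 326, SD, n = 3). In the GPC6 group they were 1492, 1168, 1428 and 876 (1241 ± 281, SD, n = 4). Each GPC6 tumor exceeded each 3xCR tumor, although the lowest GPC6 value lay close to the highest 3xCR value (p = 0.057 in a two-sided exact permutation test, as low as 3 libraries against 4 can reach). limma gave a log2 difference of 1.31 with a standard error of 0.47, an unadjusted p of 0.0249 and an adjusted p of 0.730, and the difference was 0.70 without 3xCR replicate 4 (unadjusted p = 0.0486).

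Gria4 encodes GluA4, a fast subunit of interneurons that oligodendrocyte precursors also express, and lies on the minus strand of chromosome 9 from 4417896 to 4796234. Normalized counts were 1279, 859 and 468 in the 3xCR tumors (869 ± 405, SD, n = 3) and 612, 1859, 716 and 1054 in the GPC6 tumors (1060 ± 565, SD, n = 4). The libraries took another order than for Gria1, as GPC6 replicate 2 was highest and GPC6 replicates 1 and 3 lay below 3xCR replicates 2 and 3. The log2 difference of 0.26 was smaller than its standard error of 0.47 (limma, unadjusted p = 0.587, adjusted p = 0.875). It was -0.12 without 3xCR replicate 4 and -0.05 without GPC6 replicate 2, so that no direction could be given for Gria4.

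The cornichons ordered the libraries much as Gria1 did. Cnih2, on the minus strand of chromosome 19 from 5092868 to 5098521, had 581, 227 and 149 normalized counts in the 3xCR tumors (319 ± 230, SD, n = 3) and 2142, 380, 1005 and 192 in the GPC6 tumors (930 ± 880, SD, n = 4). Cnih3, on chromosome 1 from 181352628 to 181460641, had 168, 81.9 and 78.7 in the 3xCR tumors (109 ± 50.5, SD, n = 3) and 490, 96.8, 445 and 84.4 in the GPC6 tumors (279 ± 219, SD, n = 4). For both genes GPC6 replicates 1 and 3 were the highest libraries and GPC6 replicates 2 and 4 overlapped with the 3xCR tumors. The log2 differences were 1.22 with a standard error of 0.84 for Cnih2 (limma, unadjusted p = 0.183, adjusted p = 0.731) and 1.00 with a standard error of 0.72 for Cnih3 (limma, unadjusted p = 0.204, adjusted p = 0.732). Cnih1 and Cnih4, cornichons that serve cargo export in many cell types, varied far less. Cnih1 ranged from 753 to 1110 normalized counts over the 7 libraries and Cnih4 from 414 to 859, both lowest in GPC6 replicate 1, with log2 differences of -0.08 and -0.35 and standard errors of 0.20 and 0.28 (limma, adjusted p = 0.919 and 0.746).

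Across all 14782 genes tested, 0 passed an adjusted p of 0.05 in limma (0%), and 689 had an unadjusted p under 0.05. edgeR called 0 genes at the adjusted threshold (991 unadjusted), voom 0 (499 unadjusted) and DESeq2 4 (1853 unadjusted), none of the 4 being a subunit or cornichon described here. The unadjusted threshold was passed with a higher value in GPC6 by 2.74% of all genes and by 2 of these 6, Gria2 and Gria3. Groups did not overlap, with GPC6 higher, for 2.80% of all genes and for 1 of the 6, Gria3. The median log2 difference was 1.27 over the 6 genes and -0.02 over all genes tested. The unadjusted threshold was passed by 1 of the 6 when 3xCR replicate 3, 3xCR replicate 4 or GPC6 replicate 1 was left out, and by 0 without GPC6 replicate 3. It was passed by 3 without 3xCR replicate 2, by 3 without GPC6 replicate 4 and by 2 without GPC6 replicate 2. Of all 14782 genes, 168, 56, 202, 147, 632, 764 and 926 passed with a higher value, in the same order (405 with all libraries).

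The 4 subunit genes were then added up within each library. The Gria sum was 4502, 2602 and 1115 normalized counts in the 3xCR tumors (2739 ± 1698, SD, n = 3) and 9943, 4912, 5714 and 3670 in the GPC6 tumors (6060 ± 2722, SD, n = 4). Only GPC6 replicate 4 lay inside the 3xCR range. The log2 difference was 1.26, a 2.40-fold higher sum (two-sided exact permutation test, p = 0.114).

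The make-up of that sum differed more between tumors than between groups. Gria1 supplied 18.3%, 11.8% and 13.8% of the subunit counts in the 3xCR tumors, and 45.8%, 13.2%, 27.5% and 8.92% in the GPC6 tumors. Gria4 supplied 28.4%, 33.0% and 42.0% in the 3xCR tumors, and 6.16%, 37.9%, 12.5% and 28.7% in the GPC6 tumors. GPC6 replicates 1 and 3 thus combined the highest Gria1 shares of all libraries with the lowest Gria4 shares. Counting error was small beside these gaps, as 95% Wilson intervals, which cover counting error only, ran from 44.5% to 47.0% for Gria1 and from 5.59% to 6.77% for Gria4 in GPC6 replicate 1, and from 38.6% to 45.4% for Gria4 in 3xCR replicate 4, the library with the fewest Gria reads (807).

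Gria2 and Gria3 held steadier shares. The share of Gria2 was 34.6%, 29.6% and 25.5% in the 3xCR tumors and 33.1%, 25.2%, 35.01% and 38.5% in the GPC6 tumors. The share of Gria3 was 18.7%, 25.6% and 18.7% in the 3xCR tumors and 15.0%, 23.8%, 25.0% and 23.9% in the GPC6 tumors. For neither did the groups separate.

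None of the 4 shares passed the test between groups, but none could, as the exact permutation test of 3 libraries against 4 cannot go below 0.057. The GPC6 tumors spread more widely in the shares of Gria1 and Gria4 than the 3xCR tumors. The mean share of Gria1 was 14.6% ± 3.37 in 3xCR tumors and 23.8% ± 16.6 in GPC6 tumors (SD, n = 3 and 4, exact permutation test, p = 0.514, 0.686 after Benjamini-Hochberg adjustment over the 4 shares). For Gria4 the means were 34.5% ± 6.92 and 21.3% ± 14.6 (SD, n = 3 and 4, exact permutation test, p = 0.286, adjusted 0.686). Gria2 differed by 3.03 percentage points (exact permutation test, p = 0.514, adjusted 0.686) and Gria3 by 0.919 percentage points (exact permutation test, p = 0.80, adjusted 0.80), with a sign that turned when single libraries were left out. These tests were two-sided. Without GPC6 replicate 1 the difference of the Gria1 share fell from 9.21 to 1.89 percentage points and that of Gria4 went from -13.2 to -8.11, and without 3xCR replicate 4 that of Gria2 was 0.836.

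**Figure D2:**
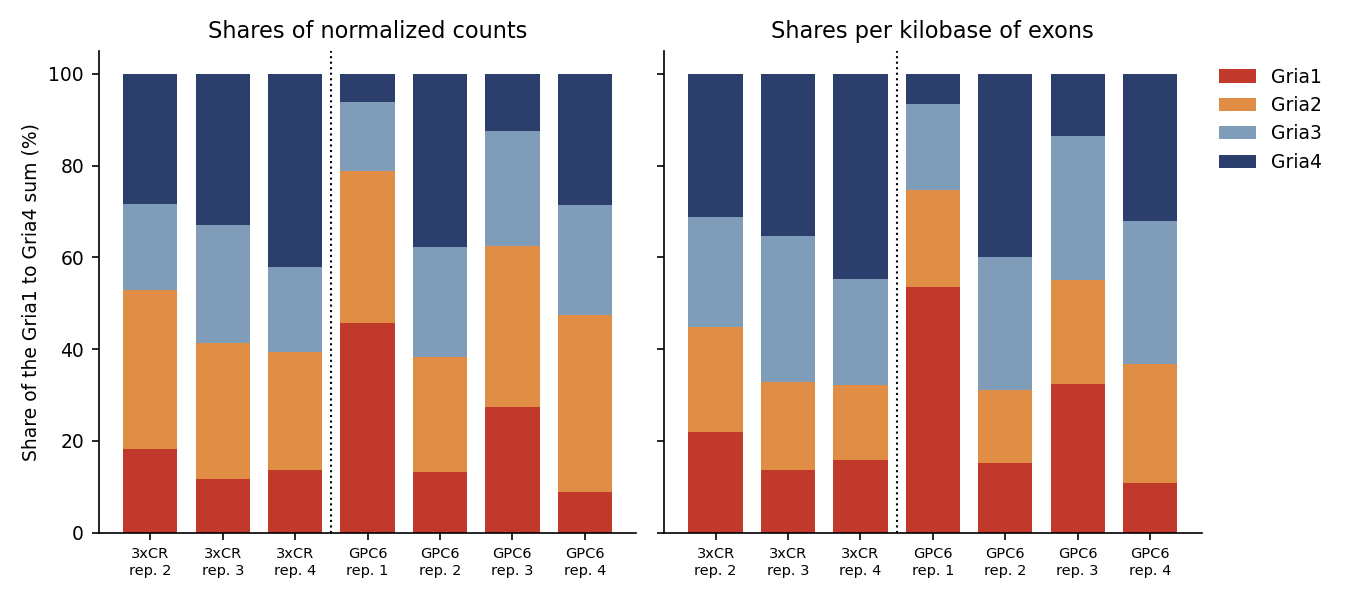
Share (%) of each subunit in the sum of Gria1 to Gria4, stacked for each library, from normalized counts (left) and from normalized counts per kilobase of exons (right), with a dotted line between the groups. GPC6 replicates 1 and 3 show the largest Gria1 bars (45.8% and 27.5% of counts) and the smallest Gria4 bars (6.16% and 12.5%), while GPC6 replicates 2 and 4 resemble the 3xCR libraries.

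Levels were compared between subunits per kilobase of exons, to allow for gene length. On this scale Gria4 was the highest subunit and Gria1 the lowest in 5 of the 7 libraries, the 3 3xCR tumors and GPC6 replicates 2 and 4. In GPC6 replicates 1 and 3 the order was turned over, with Gria1 highest and Gria4 lowest. Mean levels in the 3xCR tumors were 138 normalized counts per kilobase for Gria4, 105 for Gria3, 83.1 for Gria2 and 74.0 for Gria1, and in the GPC6 tumors 306 for Gria1, 228 for Gria3, 189 for Gria2 and 168 for Gria4, and no neighbours in either order were further apart than the spread between tumors. The place of Gria2 depended on the length used, because its exons span 10.5 kb against 2.65 kb of coding sequence. Per kilobase of coding sequence Gria2 led the means of both groups, with 329 in 3xCR and 750 in GPC6 tumors. There Gria4 was highest only in 3xCR replicates 3 and 4 and GPC6 replicate 2. Gria2 was highest in 3xCR replicate 2 and GPC6 replicates 3 and 4, and Gria1 in GPC6 replicate 1. The lowest subunit of each library was the same on both scales. Among the cornichons, Cnih2 had 238 and 692 normalized counts per kilobase of exons in 3xCR and GPC6 tumors, and Cnih3 had 39.8 and 101.

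The ratio of cornichons to subunits spread widely within the GPC6 group. The log2 ratio of Cnih2 plus Cnih3 to the Gria sum was -2.59, -3.07 and -2.29 in the 3xCR tumors and -1.92, -3.36, -1.98 and -3.73 in the GPC6 tumors. GPC6 tumors therefore held both the highest and the lowest ratios. The group means differed by -0.10 (two-sided exact permutation test, p = 0.971).

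Marker genes of cell types were set beside the receptor genes. Each list gave a score, the mean log2 deviation of its genes from their average over the 7 libraries. The score of mature neurons (15 genes, such as Rbfox3 and Snap25, none at 0 in any library) was -0.13, -0.84 and -1.85 in the 3xCR tumors and 2.35, -0.98, 1.48 and -0.03 in the GPC6 tumors, so that GPC6 replicates 1 and 3 again stood apart. Summed over the list, its normalized counts ran from 8571 to 18034 in 3xCR and from 13111 to 97974 in GPC6 tumors. The score of oligodendrocyte precursors (10 genes, such as Pdgfra and Cspg4, none at 0) was 0.75, 0.26 and -0.93 in the 3xCR tumors and -1.09, 1.28, -0.22 and -0.06 in the GPC6 tumors, with sums from 19368 to 65075 and from 17381 to 92120. Glutamatergic neuron genes (7, Neurod6 and Tbr1 at 0 in a library) and GABAergic neuron genes (6, Vip at 0 in a library) were also highest in GPC6 replicate 1, at scores of 3.65 and 3.12. The same library had a hypothalamic score of 3.52 (6 genes, of which Avp, Oxt, Hcrt, Pmch and Agrp were at 0 in a library), a choroid plexus score of 3.39 (6 genes, Folr1 and Otx2 at 0 in a library) and the lowest proliferation score, -2.96 (14 genes). Microglial genes (9) scored lower in every GPC6 tumor than in any 3xCR tumor, a difference of -0.65 (two-sided exact permutation test, p = 0.057), whereas oligodendrocyte (9 genes), astrocyte (9 genes) and endothelial (6 genes) scores overlapped between the groups. Apart from the comparison with the neuronal score below, the part of these cell types in the differences of the receptor genes was not tested.

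Gria1, Gria2, Cnih2 and Cnih3 followed the neuronal score across the 7 libraries, and Gria4 followed the score of oligodendrocyte precursors instead. In all, 18 relations were computed between the 6 genes and 3 scores (mature neurons, oligodendrocyte precursors, proliferation), with two-sided exact permutation p-values, and 5 passed after Benjamini-Hochberg adjustment of Pearson's r. With the neuronal score, r was 0.92 for Gria1 (rho 0.82), 0.89 for Gria2 (rho 0.93), 0.90 for Cnih2 (rho 0.75) and 0.92 for Cnih3 (rho 0.82). The exact permutation p-values of r were 0.00278, 0.00675, 0.00516 and 0.00635 (adjusted 0.0243 for each), and those of rho were 0.0341, 0.00675, 0.0663 and 0.0341 (adjusted 0.154, 0.0607, 0.199 and 0.154). Gria3 had an r of 0.78 (rho 0.79) with exact permutation p-values of 0.0331 and 0.0480, adjusted 0.0667 and 0.173. Without the libraries farthest from the median score, 3xCR replicate 4 and GPC6 replicate 1, r over the other 5 was 0.71 for Gria1, 0.81 for Gria2, 0.62 for Gria3, 0.70 for Cnih2 and 0.90 for Cnih3 (exact permutation p from 0.0833 to 0.258), and whether p rose through those libraries or through the smaller number cannot be told apart.

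Gria4 had an r of -0.19 with the neuronal score (rho -0.14, exact permutation p = 0.691 and 0.783, adjusted 0.769 and 0.783). With the precursor score its r was 0.94 and its rho 0.93, at exact permutation p-values of 0.00238 and 0.00675, adjusted 0.0243 and 0.0607. Without GPC6 replicates 1 and 2, the libraries farthest from the median of that score, r was 0.92 over 5 libraries. For the other 5 genes r with the precursor score lay between -0.37 (Cnih3) and 0.27 (Gria3), with adjusted exact permutation p from 0.597 to 0.910. No relation with the proliferation score passed after adjustment, the closest being Cnih2 (r -0.80, rho -0.57, exact permutation p = 0.0192 and 0.200, adjusted 0.0577 and 0.471). The scores share libraries and scaling with the genes set against them. Which cells of the mixed tissue, tumor cells included, supplied the precursor genes was not tested.

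**Figure D3:**
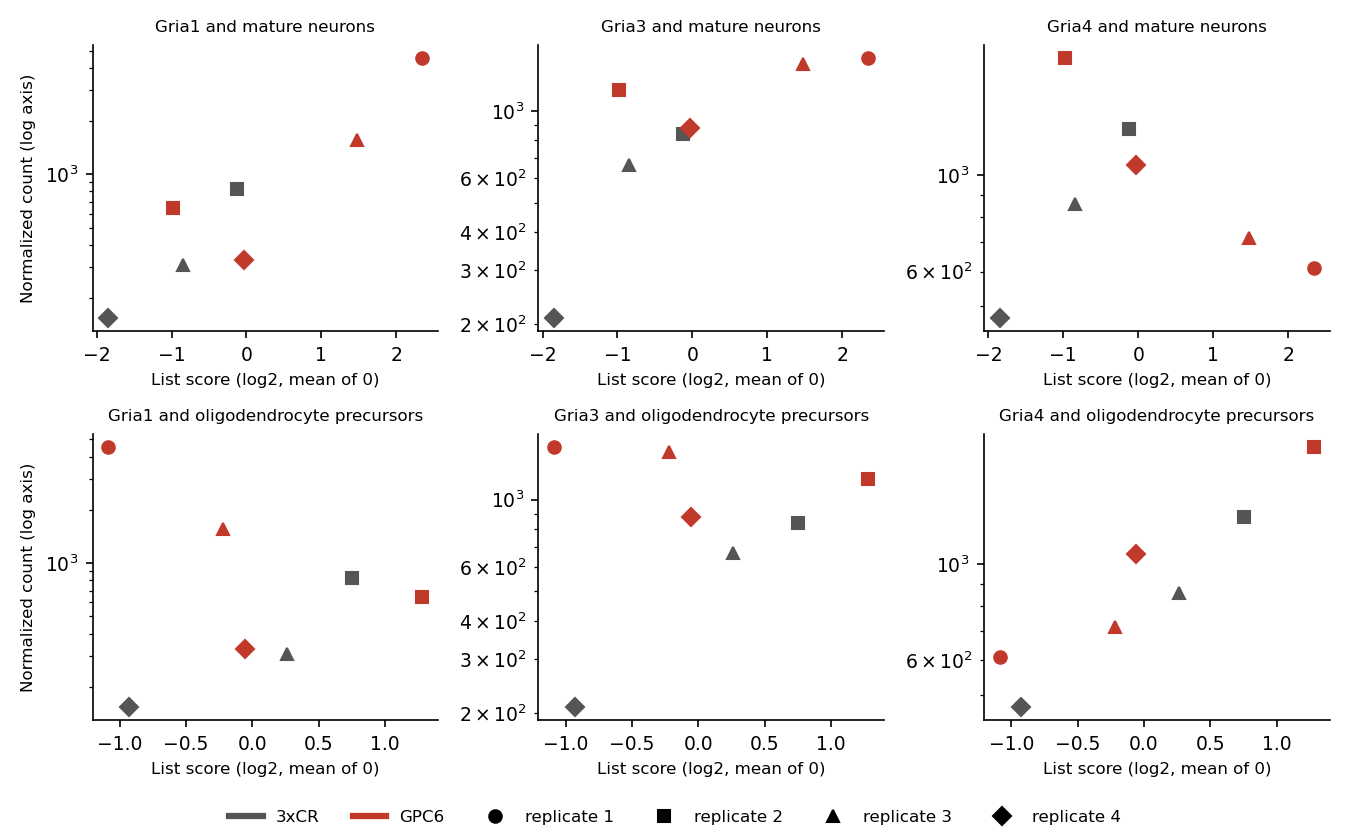
Normalized counts (log axis) of Gria1, Gria3 and Gria4 against the scores of mature neurons (top) and oligodendrocyte precursors (bottom), 1 point per library with 3xCR in grey and GPC6 in red. Gria1 climbs with the neuronal score (r 0.92) and Gria4 with the precursor score (r 0.94), while neither does so with the other list (r -0.16 and -0.19).

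Set against the neuronal genes of the same library, Gria1 had nearly the same mean in both groups, and the other receptor genes had lower means in GPC6 tumors. The same score was subtracted from every gene, so each difference is the gene's log2 difference less that of the score (1.64). The order of the genes is thus that of their log2 differences. The log2 level of Gria1 minus the neuronal score differed by 0.07 between GPC6 and 3xCR tumors (two-sided exact permutation test, p = 0.914), against 1.71 for its log2 level alone. For the other 5 genes this difference was -0.25 for Gria2, -0.33 for Gria3, -0.42 for Cnih2, -0.65 for Cnih3 and -1.38 for Gria4 (exact permutation p from 0.286 to 0.743, adjusted 0.891 for each over the 6 genes). Gria4 spread most on this scale, from -2.89 in GPC6 replicate 1 to 2.04 in GPC6 replicate 2, and leaving out the first of these libraries gave a difference of -0.61, leaving out the other -2.25. When the neuronal score entered the limma fit as a covariate, the group difference was 0.02 for Gria1, 0.42 for Gria2, 0.73 for Gria3 and 0.63 for Gria4. Those of Cnih2 and Cnih3 turned to -0.30 and -0.32, and no member passed the adjusted threshold. For Gria2, Gria3 and Gria4 the sign in this fit was opposite to that after subtraction, so their direction relative to neuronal genes depended on the method.

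The other auxiliary subunits of AMPA receptors, 18 genes that include the TARPs (Cacng family), which carry receptors to the synapse, leaned toward GPC6 without a call. Of these, 14 had a higher mean in GPC6 tumors and 4 a lower one, with a median log2 difference of 1.24. The unadjusted threshold was passed by 2, Cacng3 and Gsg1l, both higher in GPC6 (2.74% of all genes), and by 0 of the 18 with a lower value (1.92% of all genes). In none of the 18 did the groups fail to overlap, in either direction (2.80% of all genes higher, 3.52% lower). Gsg1l, a negative regulator of AMPA receptor currents, had the largest difference, 3.23 with a standard error of 1.29, and normalized counts of 135, 29.8 and 2.76 in the 3xCR tumors and 675, 58.3, 513 and 149 in the GPC6 tumors (limma, unadjusted p = 0.0368, adjusted p = 0.730). Olfm1, a secreted olfactomedin of receptor complexes, had the highest mean of the list, with 1083 ± 556 in 3xCR and 3409 ± 2679 in GPC6 tumors (SD, n = 3 and 4, limma adjusted p = 0.730). Olfm2 had the most negative difference, -0.26 with a standard error of 0.50 (limma, adjusted p = 0.886). Cacng4, a TARP picked out after its values were seen, had 1153, 750 and 352 normalized counts in the 3xCR tumors and 352, 1188, 532 and 740 in the GPC6 tumors. Like Gria4, it was highest in GPC6 replicate 2 and lower in GPC6 replicates 1 and 3 than in 3xCR replicates 2 and 3. The count of 2 became 0 when any one of 3xCR replicates 3 and 4 or GPC6 replicates 1 and 3 was left out. It became 4 without 3xCR replicate 2 and 6 without GPC6 replicate 2. In the same order, 168, 56, 202, 147, 632 and 926 of all 14782 genes passed with a higher value (405 with all libraries).

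Genes of receptor assembly, trafficking and scaffolds leaned the same way, also without a call. All 23 that were measured had a higher mean in GPC6 tumors, with a median log2 difference of 1.57. The unadjusted threshold was passed by 8, all higher in GPC6, Frrs1l, Nsf, Akap5, Nptx1, Nptx2, Camk2b, Adarb1 and Gda, where 2.74% of all genes did so, and the adjusted threshold by 0. With the neuronal score as a covariate 0 of the 23 passed the unadjusted threshold with a higher value, as did 0 of the 18 auxiliary subunits. Nrn1 passed it with a lower value (-2.24, limma, unadjusted p = 0.0144). Over all genes 61 of 14782 passed with a higher value in that fit and 247 with a lower one. DESeq2 gave 14 and 8, against 1293 of 19097 over all genes. Camk2a, the kinase that phosphorylates GluA1, had the highest mean, with 1912, 714 and 56.6 normalized counts in the 3xCR tumors and 24075, 474, 8006 and 1698 in the GPC6 tumors (log2 difference 3.04, standard error 1.55, limma adjusted p = 0.730). Nptxr, a receptor of the neuronal pentraxins that cluster AMPA receptors, had the largest difference, 3.17 with a standard error of 1.44 (limma, adjusted p = 0.730). With means of 0.493 in 3xCR and 35.3 in GPC6 tumors, it passed the filter (a mean of at least 10) only through the GPC6 tumors. Its higher mean among the 23 was thus fixed by the filter. Its normalized counts were 0.548, 0.930 and 0 in the 3xCR tumors and 105, 0.988, 31.9 and 3.09 in the GPC6 tumors, at most 1 read each in the 3xCR tumors and in GPC6 replicate 2, so that the separation of its groups (the only one among the 23, against 2.80% of all genes) rests on the scaling of single reads. With a pseudocount of 5 its difference was 1.94, below those of Camk2a (3.01) and Nptx2 (2.93). The lowest difference of the 23 was that of Pick1, which binds the tail of GluA2 and GluA3, at 0.10 with a standard error of 0.34 (limma, adjusted p = 0.941).

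Adarb1 encodes ADAR2, the enzyme that edits the Q/R codon of Gria2 printed above, and was singled out after its values were seen. The 3xCR tumors had 389, 316 and 155 normalized counts of it, and the GPC6 tumors 1867, 320, 1098 and 610. Only GPC6 replicate 2 lay inside the 3xCR range. The log2 difference was 1.57 with a standard error of 0.61 (limma, unadjusted p = 0.0324, adjusted p = 0.730). The count of 8 varied with the libraries, as 12 genes of the list passed the unadjusted threshold with a higher value without GPC6 replicate 2. It was 0 without 3xCR replicate 4, 1 without GPC6 replicate 1, 1 without GPC6 replicate 3 and 2 without 3xCR replicate 3. In the same order, 926, 56, 202, 147 and 168 of all 14782 genes passed with a higher value (405 with all libraries).

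**Figure D4:**
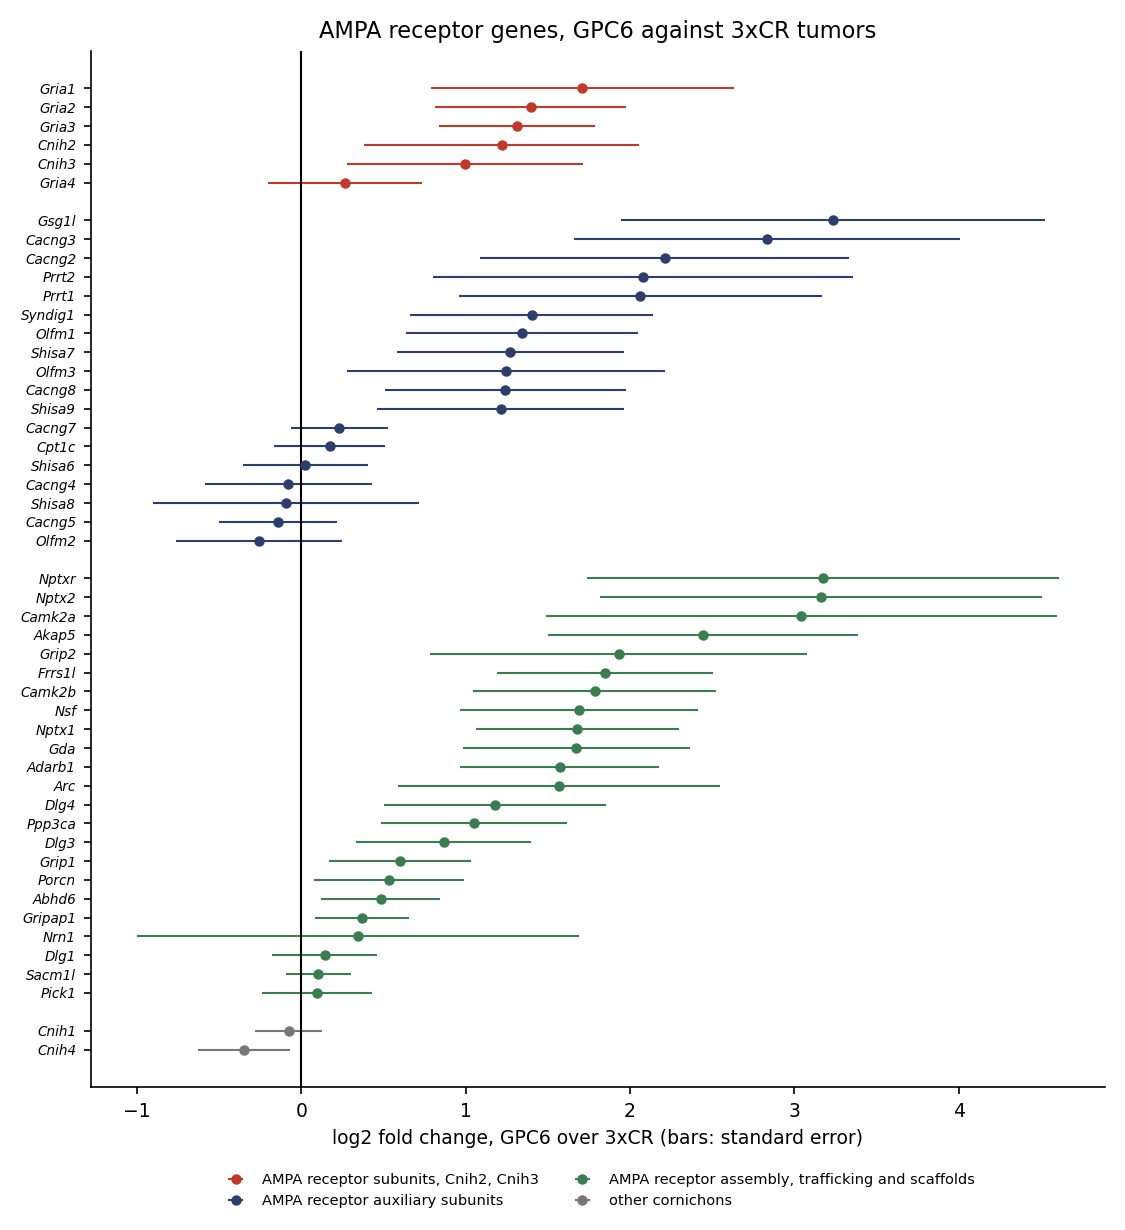
Log2 fold change of GPC6 over 3xCR tumors with its standard error (limma, 3 against 4 libraries) for the 6 genes, 18 auxiliary subunits, 23 assembly, trafficking and scaffold genes and 2 other cornichons, ordered within each set. Gria1 leads the subunits at 1.71 and Gria4 closes them at 0.26, while Cnih1 and Cnih4 lie below 0.

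Genes with the closest profiles were searched among the 12626 other genes with a mean of at least 50 normalized counts, by Pearson's r over the 7 libraries. They were Adam11 and Ptpn5 for Gria1 (r of 0.9992 and 0.9988), Adgrb1 and Ildr2 for Gria2 (0.993 and 0.992), Wnk3 and C77370 for Gria3 (0.985 for both), Zfp608 and Cep170 for Gria4 (0.985 and 0.982), Apba1 and 1700003M07Rik for Cnih2 (0.997 and 0.995), and Sgsm2 and Nsmf for Cnih3 (0.995 and 0.988). The top 2 of each gene differed from those of the other 5. These are the highest of many values over 7 libraries and are given as a description.

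Gpc6 itself had 217, 226 and 126 normalized counts in the 3xCR tumors and 675, 263, 3434 and 5084 in the GPC6 tumors. The library labelled GPC6 replicate 2 was thus near the 3xCR level. Without it, the log2 difference was 1.97 for Gria1, 1.59 for Gria2 and 1.33 for Gria3, with no member past the adjusted threshold. Leaving out GPC6 replicates 1 and 2 together, a choice made after seeing the data, gave 1.08, 1.26 and 1.19 for the same genes.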

How the data were processed

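Bulk RNA-Seq of endpoint tumor tissue was analysed for 3 3xCR and 4 GPC6 libraries, grouped by the sample labels. The labels name a TruSeq Stranded mRNA kit, and labels and methods differ in the RNA amount. The authors aligned reads to mm10 with STAR 2.5.0a, built gene counts and scaled each library by its DESeq2 1.20.0 size factor. These deposited values are a normalized signal per gene without length correction; how reads that fit several genes were counted is not given in the sources used here. Of 19282 entries, 25 had date-like names (at most 0.361% of a library) and were dropped. Whole reads were recovered for 100% of values (tolerance 0.01), 7197692 to 18879762 per library.

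The 6 genes and all gene lists were chosen with earlier results of these data known. From each list the text names the gene with the highest mean level and those at both ends of the fold changes. Groups were compared on log2(normalized count + 1) with limma 3.58.1 (R 4.3.3) and a mean-variance trend, over 14782 genes with a mean of at least 10, two-sided, Benjamini-Hochberg adjusted at 0.05. A count test was not the main one because values were deposited normalized; edgeR 4.0.16, DESeq2 1.42.0 and voom were run on recovered reads. Each library is 1 brain. Values per library were compared by exact permutation over 35 splits. limma was tested on simulated data. A count of 0 allows 3 reads (1.64 to 4.64 normalized counts), which covers counting error only. Lengths and sequences are from GENCODE on GRCm38. Epb41l1 of the trafficking list was not found.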

Additional observations from a re-analysis of the deposited data

Results flagged for a closer look

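Of 37 quantities looked at in the 4 GPC6 tumors, 1 held a library far from the other 3, and chance alone would place about 1 in 20 there. The share of Gria3 in the subunit sum was 15.0% in GPC6 replicate 1, against 23.8%, 25.0% and 23.9% in GPC6 replicates 2, 3 and 4, a gap of 0.878 of the whole range, which is above Dixon's critical value at 95% for 4 samples. The same library had the highest Gria1 share (45.8%) and the highest neuronal score (2.35), and their part in the low Gria3 share was not tested.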

How the results depend on the processing

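The higher Gria sum and the signs of the Gria1, Gria2 and Gria4 shares held in every alternative run. With so few libraries no exact permutation test of a group difference in them could pass 0.05. Weights per library called 1962 genes and DESeq2 4. With these weights the adjusted threshold was passed by Gria1 (2.09), Gria2 (1.30), Gria3 (1.08), Cnih2 (1.82) and Cnih3 (1.99), while Gria4 turned to -0.12; the cause was not tested. Adjusted p-values over all alternatives ran from 0.0293 to 1.00 for Gria1 and from 0.0336 to 1.00 for Gria3. The neuronal covariate turned Cnih2 to -0.30 and Cnih3 to -0.32. Leaving out each library in turn gave log2 differences of -0.12 to 0.60 for Gria4, share differences of -0.25 to 3.23 percentage points for Gria3, and -0.37 to 0.23 for the cornichon ratio. Relative to neuronal genes these ranges were -0.24 to 0.41 for Gria1, -0.62 to 0.021 for Gria2 and -0.87 to 0.12 for Gria3. Without GPC6 replicate 1, the relation of Cnih2 to the neuronal score had r 0.80 (exact permutation p = 0.050, unadjusted).

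Replicate numbers were not taken as pairs in the main fit. Same-numbered libraries correlated at -0.19, 0.12 and 0.30 in their deviations from the group means, and differently numbered ones at -0.46 to 0.50. So few values cannot exclude a pairing. With a replicate block 0 genes passed the adjusted threshold, and the log2 difference was 1.03 for Gria1, 1.12 for Gria2 and 1.21 for Gria3. GPC6 replicate 1 has no 3xCR library of the same number, so the block took it out of the comparison. The differences were therefore the same as without that library, and whether pairing itself changed them was not tested. With the block, the unadjusted threshold was passed with a higher value by 1 of the 6 genes, 1 auxiliary and 4 trafficking genes. Over all 14782 genes tested 326 did so. The libraries are few, so that 0.057 is the smallest two-sided exact p, and the shallowest holds 7197692 reads.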
